A study of Mus musculus with 72 samples.

Results

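The rise of newly made RNA in the nucleus was followed from 20 to 60 min of labeling in E14TG2a cells, a mouse embryonic stem cell (mESC) line grown in "2i + LIF" medium, which keeps the cells in the naive pluripotent state. It was read from 6 of the 72 libraries of the series, the nuclear libraries of replicates 3 and 4 at 20, 40 and 60 min, and described for the 10822 of 28995 genes with at least 2000 covered T positions on exons in each of these libraries. In SLAM-seq, cells build the uridine analog 4-thiouridine (4sU) into new RNA, and alkylation makes it read as C in place of T. The measurement was the exon share, the ratio of T-to-C (T2C) conversions to covered T on the exons of a gene, divided by the conversion rate of the library, so that 0 stands for no new RNA and 1 for RNA made entirely during labeling. A share can pass 1, since the rate is an estimate. All libraries came from poly(A)-selected RNA of independently passaged cells, and the nuclear fraction was the pellet left after detergent had released cytosol and membranes, spun through a sucrose cushion. GEO's labels give replicates 3 and 4 a 4sU dose of 500 µM at 20 and 40 min and 100 µM at 60 min. The methods of the study name 500 µM for most replicates at 60 min and 100 µM for the rest, without their numbers. The study also states that the conversion rate grew with time at the high dose and stayed constant at the low dose. The conversion rates were 3.37% and 3.56% at 20 min, 6.04% and 5.95% at 40 min and 7.66% and 8.29% at 60 min in replicates 3 and 4. In replicates 5 and 6 at 60 min and 100 µM they were 3.25% and 3.53%. If the labels hold, dose and labeling time cannot be told apart between 20 and 60 min in replicates 3 and 4. Of the other libraries used below, the labels give 500 µM to replicates 1 and 2 at 15, 20 and 30 min. They give 100 µM to replicates 5 and 6 at 120 min as well. Below, a pair of values always gives replicate 3 and then replicate 4, unless other replicates are named.

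A nuclear poly(A) transcript is made by transcription, splicing and 3′ end cleavage, and leaves the nuclear pool by export or by decay in the nucleus. The share of new RNA in that pool climbs quickly where nuclear transcripts are replaced quickly and slowly where old transcripts stay. Many introns are removed during transcription, and those seen in poly(A) RNA are the ones still present after polyadenylation. Unspliced RNA precedes spliced RNA, so the share of introns should lead that of exons, and the cytosol follows the nucleus. The patterns sought among the genes were a share that was already high at 20 min, a share that climbed late, after 40 min, and a share that barely climbed.

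The 6 libraries held 15716484 to 52975732 reads on genes, and no gene described here had fewer than 2002 covered T in any of the 6 libraries. Replicates differed by far more than counting error: the chi-square of a gene's conversions between replicates 3 and 4, near 1 under counting alone, averaged 15.2 at 20 min, 9.67 at 40 min and 80.6 at 60 min. Reads outside exons of a single gene made up 35.9% and 26.1% of the counted reads at 20 min, 21.7% and 21.6% at 40 min and 28.4% and 17.1% at 60 min. The summed level of the 4 nuclear RNA markers (Malat1, Neat1, Kcnq1ot1 and Meg3) ran from 886 CPM (a gene's reads scaled to a common library size) in replicate 4 at 60 min to 2986 CPM in replicate 3 at 20 min, against 83.5 to 177 CPM in the matched cytosol. The sum was highest at 20 min in each replicate, and the part of this in the results below was not tested. The 13 transcripts encoded by mitochondrial DNA summed to 4798 to 7211 CPM in the nuclear libraries, against 263 to 656 CPM in the matched cytosol. The study describes a slight mitochondrial contamination of the nuclear fraction. The 8 mESC markers were all detected. The 10 markers of differentiated or feeder cells summed to 24.6 to 31.4 CPM in the nucleus, with at most 1 of them at 0.

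The nuclear exon share rose with labeling time. Its median over the 10822 genes was 0.115 and 0.0909 at 20 min, 0.154 and 0.1498 at 40 min and 0.275 and 0.194 at 60 min. Both 60 min libraries were above both 40 min libraries, and these were above both 20 min libraries. With 2 libraries against 2, the exact two-sided permutation test of 60 against 20 min found 2 of the 6 possible assignments as extreme as the real one, the smallest p this design allows, so that it cannot pass 0.05. Introns of the 9553 genes with enough covered intron T ran ahead of exons, with medians of 0.441 and 0.360 at 20 min, 0.745 and 0.721 at 40 min and 0.875 and 0.824 at 60 min. Cytosolic exons lagged behind, at 0.0223 and 0.0280, 0.0446 and 0.0494 and 0.0934 and 0.0936. The share climbed at each step in both replicates for 5687 genes (52.6%) and was lower at 60 than at 20 min in both for 180 genes (1.66%). At 40 min it was below its value at 20 min for 3010 genes (27.8%) in replicate 3 and for 1309 genes (12.1%) in replicate 4.

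**Figure D1:**
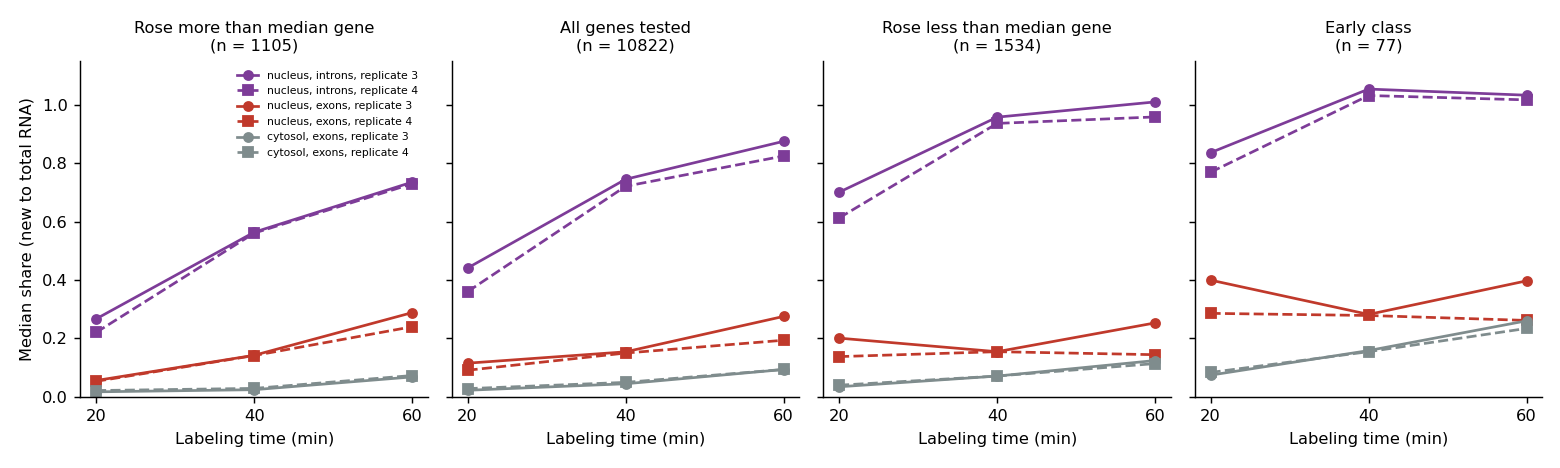
Median share of new to total RNA (vertical axis) against labeling time in min (horizontal axis) for nuclear introns (purple), nuclear exons (red) and cytosolic exons (gray), with circles and solid lines for replicate 3 and squares and dashed lines for replicate 4. Panels show the 1105 genes that rose more than the median gene, all 10822 genes, the 1534 genes that rose less and the early class of 77 genes, and intron and cytosol medians cover those members with enough reads. Introns lie above nuclear exons and nuclear exons above cytosolic exons at every time in every panel, and the genes that rose more start lowest in introns.

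In absolute share, the rise passed the test for 5751 genes (limma on the share, adjusted p under 0.05, 53.1% of those tested) and a fall for 2 (0.0185%), the pseudogene Gm4335 and Gm8797. As a fold change, edgeR's quasi-likelihood test called a rise for 6593 genes (60.9%) and a fall for 3 (0.0277%): Pnp2, a purine nucleoside phosphorylase, Pcdh19, a protocadherin, and Gm8797. In Pnp2 the share was 0.665 and 0.127 at 20 min, 0.116 and 0.152 at 40 min and 0.145 and 0.0822 at 60 min, with replicate 3 at 20 min far above the other 5 libraries. Few reads were assigned to Pnp2, Gm8797 and Gm4335, with mean nuclear levels of 0.428, 0.426 and 0.413 CPM, so that the source of their conversions is uncertain. Without replicate 3 at 20 min the test of absolute share called 1312 rises, without replicate 4 at 20 min 1507 and without replicate 4 at 60 min 8807. Without replicate 4 at 20 min the fold test called 3806 rises, and without replicate 3 at 60 min it called 107 falls.

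Few genes were near 1 at 20 min. A share of at least 0.8 was reached by 8 genes in replicate 3 and 4 genes in replicate 4 at 20 min, by 44 and 40 at 40 min and by 109 and 58 at 60 min. A share of at least 0.5 was held by 97 and 31 genes at 20 min and by 1142 and 452 genes at 60 min. Saturation at 20 min, in the sense of a share near 1, was thus seen for no more than a handful of genes, and the class of genes with the smallest further rise is called the early class below, not a saturated one.

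The rise of a gene was then set against that of the median gene in the same library, which also takes out any error in a library's conversion rate. With edgeR's quasi-likelihood test, 1105 genes rose more than the median gene (adjusted p under 0.05, 10.2% of those tested) and 1534 rose less (14.2%). The 5 genes with the smallest adjusted p above the median gene were Rif1, Zbed6, Gm21742, Atp13a1 and Safb2. Rif1, which binds telomeres and sets replication timing, had shares of 0.0450 and 0.0362 at 20 min, 0.153 and 0.159 at 40 min and 0.361 and 0.194 at 60 min, and rose by 1.55 ± 0.18 (log2, SE) more than the median gene (adjusted p = 3.79e-06). All 6 libraries were in the order of their times, although the 60 min libraries were far apart. Atp13a1, an ATPase of the endoplasmic reticulum, went from 0.0628 and 0.0523 to 0.365 and 0.354 and Safb2, a scaffold attachment factor, from 0.0326 and 0.0369 to 0.277 and 0.248. In both genes the replicates at 60 min lay close together, well above the 40 min values. Zbed6, a zinc finger gene without introns that lies within Zc3h11a, went from 0.0520 and 0.0490 to 0.436 and 0.336, and no reads were assigned to it in the tables of reads per gene, so that its conversions may be shared with its host. Gm21742, an unprocessed pseudogene on chromosome Y, went from 0.0333 and 0.0280 to 0.233 and 0.240, and since reads could map to several places its source is uncertain.

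Below the median gene the smallest adjusted p values belonged to H3f3b, Gm47283, Gm9800, Actb and Actg1. H3f3b, which encodes the replacement histone H3.3, had exon shares of 0.348 and 0.215 at 20 min, 0.132 and 0.129 at 40 min and 0.231 and 0.146 at 60 min. It was lowest at 40 min in both replicates, and its rise was -1.76 ± 0.17 (log2, SE) against the median gene (adjusted p = 1.28e-06, edgeR). The introns of H3f3b were at 0.875 and 0.930 already at 20 min and at 1.07 and 1.17 at 60 min, far above the exons. The cytoskeletal actins also had higher shares at 20 than at 40 min. Actb had exon shares of 0.183 and 0.125 at 20 min, 0.0905 and 0.0919 at 40 min and 0.135 and 0.0984 at 60 min, with intron shares of 1.07 and 1.09 at 20 min, and Actg1 had exon shares of 0.271 and 0.155 at 20 min, 0.116 and 0.115 at 40 min and 0.187 and 0.112 at 60 min, with intron shares of 0.952 and 0.961. In these genes no intron share was below 0.875 at 20 min and no exon share above 0.348 at any time, and the 20 min libraries lay above the 40 min libraries. Gm9800, a processed pseudogene of 0.336 kb, and Gm47283, on chromosome Y, can share reads with related copies and are uncertain.

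Between the replicates, the log2 rise from 20 to 60 min had a rank correlation of 0.655 across the 10822 genes (a description, since genes of 1 library are not independent). Without replicate 3 at 20 min the calls fell to 379 above and 685 below the median gene, and without replicate 4 at 60 min to 546 and 961. With limma on log2(share + 0.001) they were 128 and 184. After subtraction of the 1st percentile of the ratio over genes, taken as background in each library, none passed. That percentile grew with labeling time and may hold new RNA as well.

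**Figure D2:**
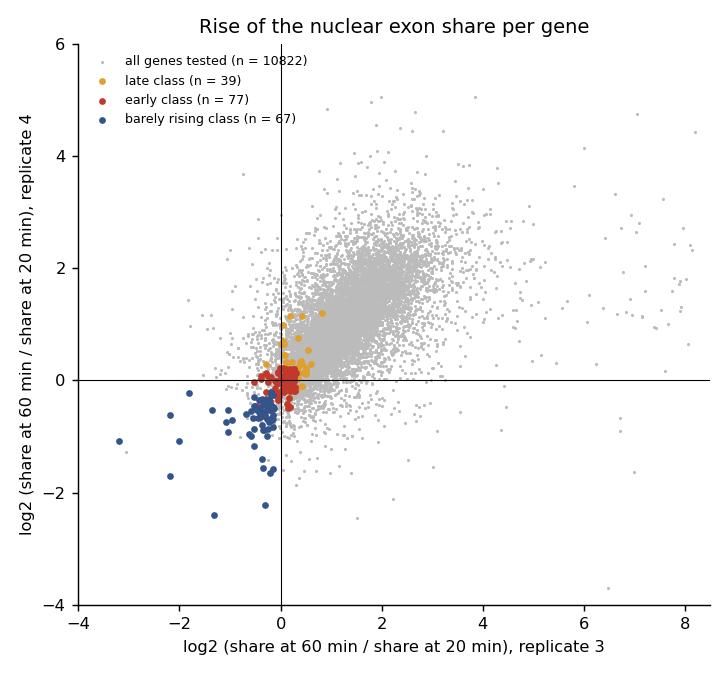
Rise of the nuclear exon share per gene as log2(share at 60 min / share at 20 min), replicate 3 on the horizontal and replicate 4 on the vertical axis, 1 point per gene (gray, n = 10822). The early (red, n = 77) and barely rising (blue, n = 67) classes lie at the low end of both axes, which their choice fixes, the late class (orange, n = 39) reaches further up, and the main cloud runs along the diagonal with a rank correlation of 0.655.

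The early class was chosen by the early fraction, the share at 20 min divided by that at 60 min. Its 77 members were in the top 5% of this fraction in both replicates (limits 0.809 and 0.854) among the 4490 genes whose share at 60 min was at or above the library median in both. Just inside the limit, Hipk3 had shares of 0.362 and 0.238 at 20 min and 0.444 and 0.261 at 60 min, and just outside it Gm7324 had 0.304 and 0.168 and then 0.378 and 0.194. The medians of the class were 0.399 and 0.286 at 20 min, 0.282 and 0.278 at 40 min and 0.397 and 0.261 at 60 min, against 0.173 and 0.140, 0.248 and 0.242 and 0.405 and 0.306 in the 4490 genes. These values chose the class and are given as a description. The share was lower at 40 than at 20 min in both replicates for 33 of the 77.

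In libraries that took no part in the choice the early class was not at its ceiling. In replicates 1 and 2 its median climbed from 0.135 and 0.0939 at 15 min to 0.174 and 0.203 at 20 min and 0.282 and 0.302 at 30 min. There 74 of 77 members were higher at 30 than at 15 min in both, against 90.7% of all genes. In replicates 5 and 6 the median went from 0.389 and 0.372 at 60 min to 0.641 and 0.609 at 120 min. Here 68 of 77 were higher at 120 min in both, against 97.7% of all genes. Set against the median gene in edgeR, 17 of 77 members (22.1%) rose less from 15 to 30 min in replicates 1 and 2, where 3.69% of all genes did so and 0.813% rose more. From 60 to 120 min in replicates 5 and 6, 22 of 77 (28.6%) rose less, where 16.1% of all genes did and 7.94% rose more, and no member rose more in either comparison. Among the 4490 genes with high shares at 60 min the fraction below the median gene was 2.67% from 15 to 30 min and 25.8% from 60 to 120 min. The gap to these genes was thus wide in the earlier interval and narrow in the later one. The difference between these fractions was not tested. In the earlier interval the 4490 genes did not have like shares, with medians of 0.0471 and 0.0339 at 15 min in replicates 1 and 2.

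The level of the 20 min libraries bears on this class. The 20 min share of a gene was above both replicates 1 and 2 in both replicates 3 and 4 for 68 of 77 early genes and for 9064 of all genes (83.8%), and the median early share at 20 min was 0.174 and 0.203 in replicates 1 and 2 against 0.399 and 0.286 in replicates 3 and 4. What sets these pairs of replicates apart at the same time and dose was not tested.

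**Figure D3:**
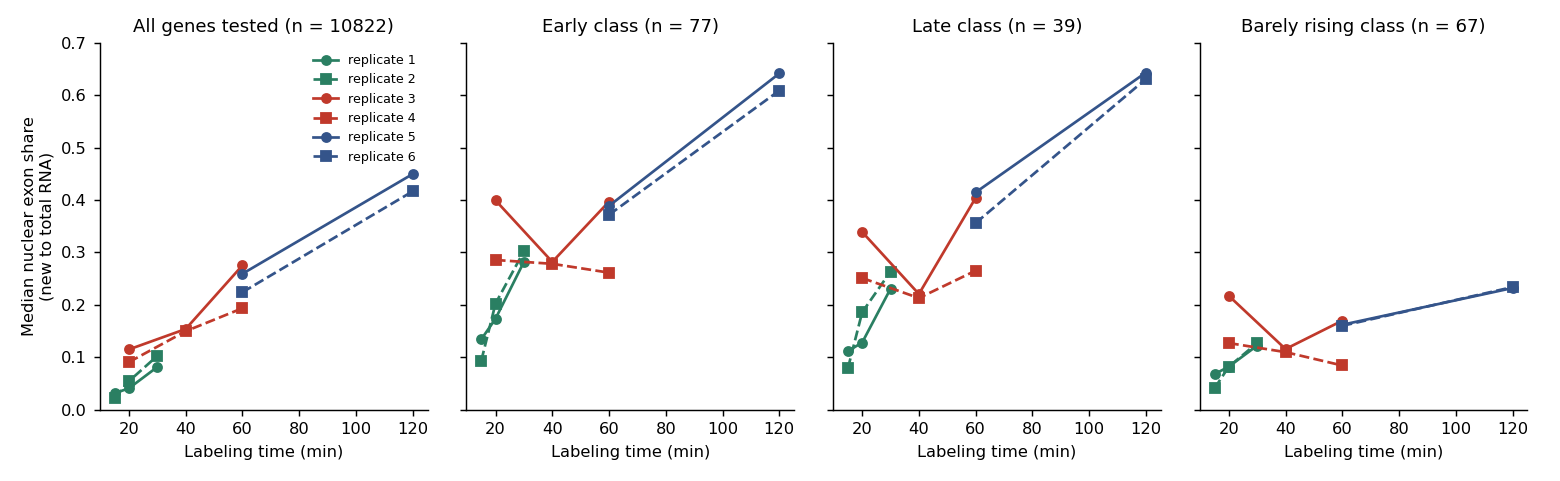
Median nuclear exon share (vertical axis, new to total RNA) against labeling time in min (horizontal axis) over all 10822 genes, the early class (77), the late class (39) and the barely rising class (67), with 1 line per replicate (green 1 and 2, red 3 and 4, blue 5 and 6). Over all genes each line climbs, from 0.0227 at 15 min to 0.449 at 120 min at the extremes, with replicates 3 and 4 above replicates 1 and 2 at 20 min, while in the classes the 20 min points of replicates 3 and 4 lie above their 40 min points, and the share climbs in replicates 1, 2, 5 and 6.

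The 8 members with the largest early fraction were Gm49493, Fgfbp1, Gm47283, Tbcc, Serp1, 1500011B03Rik, Eif1 and D030056L22Rik. Eif1, a factor that guards start codon choice in translation, had shares of 0.411 and 0.306 at 20 min, 0.288 and 0.260 at 40 min and 0.397 and 0.242 at 60 min. Serp1, a stress-associated protein of the endoplasmic reticulum, had 0.407 and 0.291 at 20 min, 0.293 and 0.244 at 40 min and 0.353 and 0.225 at 60 min. In both genes replicate 3 dipped at 40 min and replicate 4 drifted down. In replicates 5 and 6 both were higher again at 120 min, with 0.473 and 0.453 for Eif1 and 0.531 and 0.530 for Serp1. Tbcc, a tubulin folding cofactor without introns, had 0.528 and 0.255 at 20 min and 0.367 and 0.252 at 60 min, and its replicates at 20 min were further apart than its times. Gm47283 went against the climb of most members, as did Gm21887, from 0.802 and 0.657 at 15 min to 0.527 and 0.373 at 30 min in replicates 1 and 2, a difference of -2.43 from the median gene (log2, adjusted p = 2.11e-09, edgeR).

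Transcription factors of the pluripotent state were among the members, a point noticed after the values were seen. The class held 4 of the 20 listed core and naive pluripotency factors, beside 77 of all 10822 genes. Nanog had shares of 0.465 and 0.302 at 20 min, 0.277 and 0.278 at 40 min and 0.468 and 0.263 at 60 min, and 0.362 and 0.323 at 60 min and 0.622 and 0.593 at 120 min in replicates 5 and 6. Sox2, a gene of 1 exon, had 0.461 and 0.353 at 20 min, 0.373 and 0.326 at 40 min and 0.495 and 0.325 at 60 min, and 0.811 and 0.757 at 120 min. Neither was at a ceiling at 60 min, since both were higher at 120 min than in any 60 min library. Sall4 was a further member from the list of 20 pluripotency factors. Further members with known short-lived transcripts were Mcl1, an inhibitor of apoptosis, with 0.417 and 0.355 at 20 min, 0.363 and 0.388 at 40 min and 0.503 and 0.359 at 60 min. Zfp36l1, which directs decay of AU-rich mRNAs, had 0.522 and 0.361 at 20 min, 0.352 and 0.385 at 40 min and 0.533 and 0.321 at 60 min. Replicate 4 stayed between 0.321 and 0.388 in both genes at all times.

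An early fraction of at least 0.8 together with a share at 60 min of at least 0.5 in both replicates, limits chosen after the data were seen, was held by 6 genes. 4 of them had shares near 1. Rab26os, an antisense transcript of 0.497 kb on chromosome 17 (chr17:24528248-24528744, GRCm38), had 1.14 and 0.998 at 20 min, 1.14 and 1.17 at 40 min and 1.06 and 0.997 at 60 min, so that every library was near or above 1 and the times followed no order. Dancr, a long noncoding RNA that hosts a small nucleolar RNA (snoRNA) on chromosome 5 (chr5:74093060-74095406), had 0.925 and 0.874 at 20 min, 1.14 and 1.04 at 40 min and 1.07 and 0.963 at 60 min. The identifier ENSMUSG00000053656, not matched in the annotation, had nearly the same values as Dancr (0.922 and 0.875 at 20 min), and both may count the same reads. Snhg15, a snoRNA host gene on chromosome 11 (chr11:6525591-6528760), had 0.916 and 0.909 at 20 min, 1.05 and 1.02 at 40 min and 1.05 and 0.946 at 60 min. Snhg8, a snoRNA host on chromosome 3 (chr3:123507552-123508404), came next with 0.768 and 0.688 at 20 min, 0.824 and 0.770 at 40 min and 0.925 and 0.740 at 60 min. Atf4, the transcription factor of the integrated stress response, was at 0.509 and 0.446 at 20 min, 0.475 and 0.485 at 40 min and 0.609 and 0.516 at 60 min.

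At 15 min in replicates 1 and 2 these genes had lower shares, with 0.689 and 0.684 for Rab26os, 0.535 and 0.515 for Dancr and 0.292 and 0.359 for Snhg15. By 30 min Rab26os was at 1.06 and 1.14 and Dancr at 0.873 and 0.934. In replicates 5 and 6 the same genes did not all return to 1. Snhg15 was at 0.332 and 0.871 at 60 min, Snhg8 at 0.211 and 0.531 and Dancr at 0.628 and 0.929. In all 3 genes replicate 5 lay far below replicate 6, and neither reached the level of replicates 3 and 4 at 60 min. Rab26os, at 1.02 and 0.979, matched it. Atf4 went from 0.576 and 0.489 to 0.725 and 0.705 between 60 and 120 min in these replicates, above all its values up to 60 min.

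**Figure D4:**
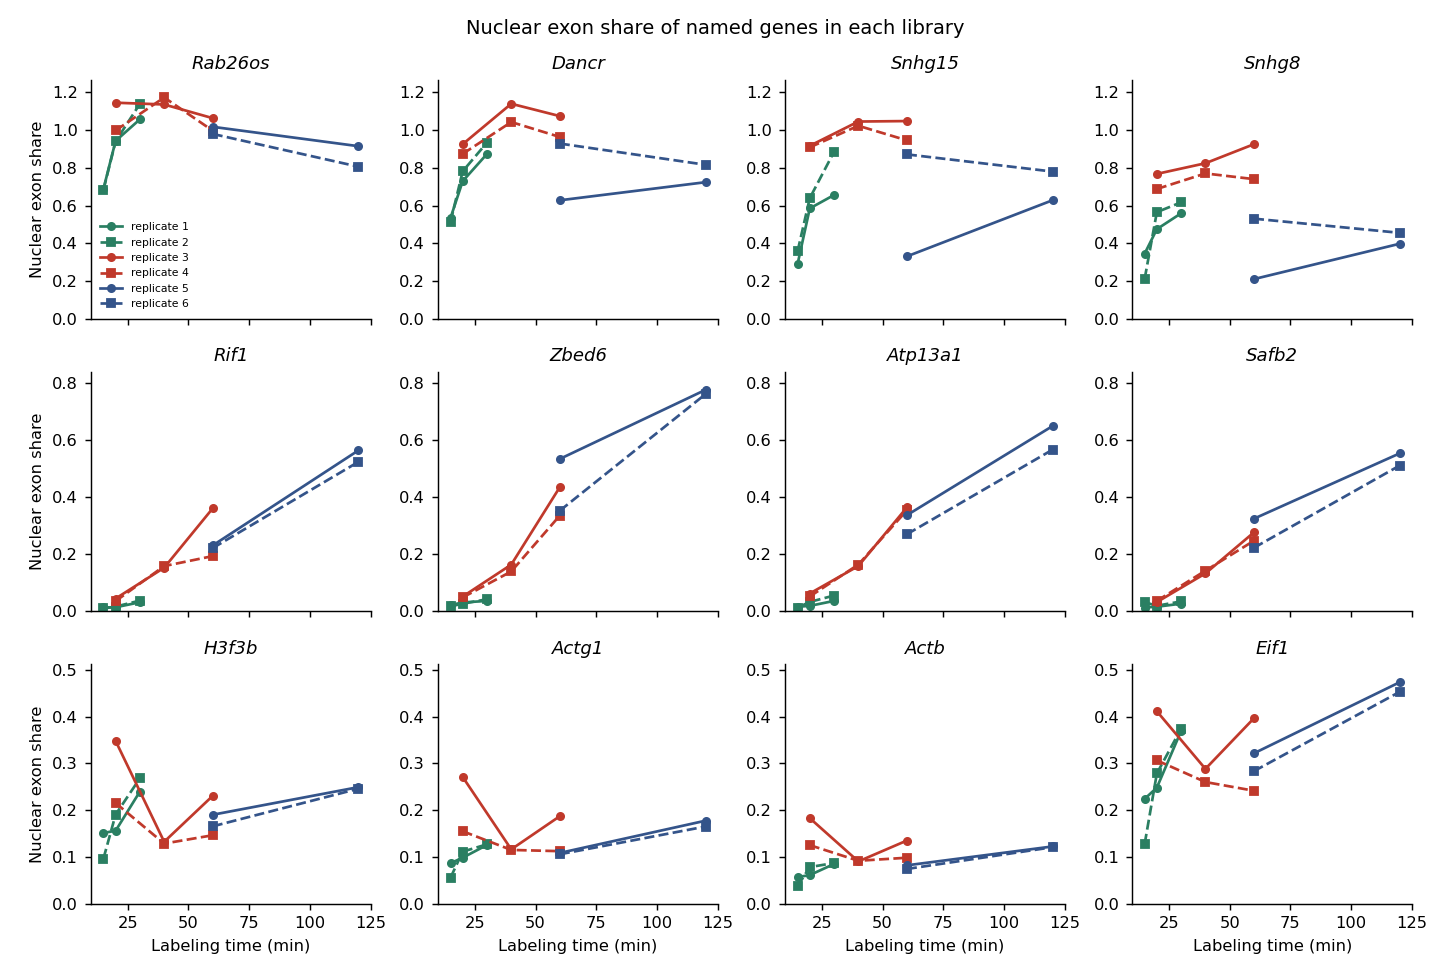
Nuclear exon share (vertical axis) against labeling time in min (horizontal axis) of 12 named genes, 1 line per replicate (green 1 and 2, red 3 and 4, blue 5 and 6), with 1 vertical scale per row. The top row (Rab26os, Dancr, Snhg15, Snhg8) is at 0.688 or more from 20 min on in replicates 3 and 4, the middle row (Rif1, Zbed6, Atp13a1, Safb2) starts near 0 and climbs to 120 min, and in the bottom row (H3f3b, Actg1, Actb, Eif1) the 20 min points of replicates 3 and 4 lie above their 40 min points.

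Members of the early class were compact genes, but this was not particular to them. Their median length was 5.50 kb with 3 exon blocks (exons merged over transcripts), against 23.2 kb and 10 over all genes. A single block was held by 26.3%, against 5.48%. The late class had medians of 6.50 kb and 4 blocks, with a single block in 28.2%. The barely rising class had 9.72 kb and 5 blocks, with a single block in 22.4%. The nuclear level of early genes was low beside the cytosol, with a median log2 ratio of nuclear to cytosolic CPM of -0.45 against 0.39 over all genes. This ratio was -0.24 in the late and -0.59 in the barely rising class. Introns of the 48 early genes with enough covered intron T were at 0.836 and 0.769 at 20 min and 1.05 and 1.03 at 40 min. Over all genes they were at 0.441 and 0.360 and 0.745 and 0.721, and in the barely rising class at 0.822 and 0.737 at 20 min. Intron and exon shares came from the same libraries.

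The heptamer TATTTAT is the core of AU-rich elements, which are bound by decay factors such as the Zfp36 family and mark many short-lived mRNAs. Searched on the sense strand of 3′ UTRs (GENCODE transcripts, GRCm38), with overlapping copies counted, it was held by 26 of 66 early genes with a 3′ UTR (39.4%), by 31.4% of all 10068 3′ UTRs and by 36.6% of those of the 4490 genes with high shares. Under the absolute limits for early genes (a share of at least 0.5 at 60 min and an early fraction of at least 0.5, 135 genes) it was held by 43.0% of 93, with 0.655 copies per kb against 0.288. Only 6 of these 135 genes were in the early class. The heptamer was held by 38.2% of late genes, by 37.6% of genes that rose less than the median gene and by 23.8% of those that rose more. The 3′ UTRs of the last group were shorter, with a median of 820 bases against 1140.5 in the early class and 1232 over all genes. They held 0.256 copies per kb, against 0.427 in the early class and 0.283 in those that rose less. Sites of 4 members described above are shown to let the heptamer, in capitals, be seen in its context, each 5′ to 3′ on the strand of the gene. They lie at chr6:122713632-122713656 (Nanog, plus strand), chr3:34651824-34651848 (Sox2, plus strand), chr3:95660884-95660908 (Mcl1, plus strand) and chr12:80108424-80108448 (Zfp36l1, minus strand), all in the 3′ UTR. A match is a description and does not show that the site is used.
Nanog: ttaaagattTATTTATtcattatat
Sox2: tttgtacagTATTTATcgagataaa
Mcl1: aaacatgtgTATTTATgaaggtgga
Zfp36l1: atcaaaacgTATTTATtgccaaact

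The late class was chosen by the late index, the part of the rise from 20 to 60 min that came after 40 min. Its 39 members were in the top 5% in both replicates (limits 1.63 and 1.077) among the same 4490 genes. Where the share rose, an index above 1 means that it was lower at 40 than at 20 min, which held in both replicates for 30 of 39 members. The other 9 were lower at 60 than at 20 min in 1 replicate, where the index has no such reading. The class thus held genes that dipped rather than genes that waited. The medians were 0.339 and 0.251 at 20 min, 0.221 and 0.213 at 40 min and 0.404 and 0.265 at 60 min. Across the 4490 genes the index had a rank correlation of only 0.0469 between replicates, and of 0.0731 over the 4750 genes whose share rose by at least 0.1 in both, whereas the early fraction had 0.701. Just inside the limit Kcnk6 had shares of 0.184 and 0.115 at 20 min and 0.323 and 0.265 at 60 min, and just outside it Surf6 had 0.407 and 0.242 and then 0.523 and 0.365.

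The members with the highest index included Ets2, Thap1, Fjx1, Akip1, Naif1, Zfp36l1 and Gm21596, of which Ets2, Thap1 and Zfp36l1 were also in the early class, as were 10 of the 39 in all. Ets2, a transcription factor of the ETS family, had 0.336 and 0.230 at 20 min, 0.221 and 0.208 at 40 min and 0.363 and 0.230 at 60 min. Its 20 and 60 min libraries of a replicate differed less than the replicates did. Naif1, a nuclear inducer of apoptosis, had 0.418 and 0.255 at 20 min, 0.217 and 0.230 at 40 min and 0.430 and 0.418 at 60 min, and here both 60 min libraries were at or above both 20 min libraries. In replicates 1 and 2 the class climbed from 0.112 and 0.0794 at 15 min through 0.128 and 0.186 at 20 min to 0.231 and 0.264 at 30 min. There 37 of 39 members were higher at 30 than at 15 min in both, against 90.7% of all genes. Against the median gene 5 of 39 (12.8%) rose less from 15 to 30 min, where 3.69% of all genes did, and 4 of 39 (10.3%) from 60 to 120 min, where 16.1% did.

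Absolute limits gave a late group of another kind. A rise of at least 0.2 with at least 0.6 of it after 40 min in both replicates was met by 198 genes, 0 of them among the 39, with medians of 0.121 and 0.108 at 20 min, 0.213 and 0.188 at 40 min and 0.438 and 0.378 at 60 min. Their medians did not dip, and 28.8% of them were among the genes that rose more than the median gene, a count that their choice in part fixes. From 60 to 120 min in replicates 5 and 6 they went from 0.406 and 0.338 to 0.672 and 0.638, and 13.1% rose less than the median gene, where 16.1% of all genes did. A late class drawn only from genes whose share rose by at least 0.1, added after the data were seen, held 22 genes, 2 of them shared with the 39. Among the 22, Atf3, a stress-induced transcription factor, had 0.410 and 0.3329 at 20 min, 0.297 and 0.255 at 40 min and 0.521 and 0.564 at 60 min. Btg2, an antiproliferative early response gene, had 0.261 and 0.228 at 20 min, 0.243 and 0.221 at 40 min and 0.507 and 0.409 at 60 min.

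The barely rising class was chosen by the difference between 60 and 20 min among the 4490 genes below the library median at 60 min in both replicates. Its 67 members were in the lowest 5% in both (limits -0.0123 and -0.0219), and since these limits were below 0, the share of all 67 was lower at 60 than at 20 min in both replicates. The medians were 0.217 and 0.127 at 20 min, 0.116 and 0.1099 at 40 min and 0.170 and 0.0845 at 60 min, against 0.0760 and 0.0585, 0.0910 and 0.0893 and 0.176 and 0.113 in the 4490 genes. Just inside the limit Slc16a1 had shares of 0.277 and 0.136 at 20 min and 0.243 and 0.113 at 60 min, and just outside it Spp1 had 0.278 and 0.186 and then 0.266 and 0.143.

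In the other replicates most of these genes did climb. In replicates 1 and 2 the median went from 0.0680 and 0.0411 at 15 min to 0.122 and 0.127 at 30 min. There 54 of 67 were higher in both, against 90.7% of all genes. In replicates 5 and 6 the median went from 0.162 and 0.160 at 60 min to 0.232 and 0.234 at 120 min. Here 63 of 67 were higher in both, against 97.7% of all genes. The climb was small for many members. Against the median gene 17 of 67 (25.4%) rose less from 15 to 30 min, beside 3.69% of all genes and 5.41% of the 4490 genes with low shares. From 60 to 120 min 15 of 67 (22.4%) rose less, beside 16.1% and 8.73%, and 1 rose more. These fractions were not compared by a test. At 20 min, 56 of 67 members were above both replicates 1 and 2 in both replicates 3 and 4, against 83.8% of all genes.

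The members with the most negative mean difference were Pnp2, Timp2, Frat2, Gm4335, Pcdh19, Gm8797, Ftl1-ps2 and Basp1. Replicate 3 at 20 min was the highest of the 6 libraries in all 8: Timp2, an inhibitor of metalloproteinases, had 0.597 and 0.212 at 20 min, 0.0906 and 0.124 at 40 min and 0.170 and 0.181 at 60 min. Frat2, a regulator of Wnt signaling, had 0.554 and 0.216 at 20 min, 0.322 and 0.273 at 40 min and 0.216 and 0.1497 at 60 min. In replicates 5 and 6 Frat2 was at 0.607 and 0.509 at 60 min and 0.762 and 0.755 at 120 min, far above its 60 min values here. Basp1, a membrane-bound signaling protein, had 0.331 and 0.214 at 20 min, 0.101 and 0.190 at 40 min and 0.231 and 0.0947 at 60 min. The pseudogenes Gm4335 and Ftl1-ps2 can share reads with their parent genes. 9 of the 67 members were pseudogenes (13.4%), against 3.42% of all genes, and Ftl1-ps2 was at 0.239 and 0.247 already at 15 min in replicates 1 and 2, above its value at 60 min in replicate 3.

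Beside Actb, Actg1 and H3f3b the class included, among members picked after their values were seen, the thymosins Tmsb4x and Tmsb10, which bind actin monomers, prothymosin Ptma and the modifier Sumo2. Tmsb4x had 0.244 and 0.125 at 20 min, 0.0898 and 0.104 at 40 min and 0.209 and 0.0982 at 60 min. Replicate 3 at 20 min was its highest library, and at 60 min replicate 3 was above replicate 4 at 20 min. Tmsb10 had 0.340 and 0.263 at 20 min, 0.180 and 0.221 at 40 min and 0.271 and 0.193 at 60 min, with 0.227 and 0.226 at 30 min and 0.196 and 0.194 at 120 min in the other replicates, and rose less than the median gene both from 15 to 30 min (-1.44, log2, adjusted p = 6.37e-05, edgeR) and from 60 to 120 min (-0.72, adjusted p = 1.06e-06). Introns of the 40 members with enough covered intron T were nearly replaced, with medians of 0.822 and 0.737 at 20 min and 1.05 and 0.992 at 60 min, and the median log2 ratio of nuclear to cytosolic CPM was -0.59. Under absolute limits, a rise under 0.05 and a share under 0.15 at 60 min, 676 genes were found, 27 of them among the 67, with medians of 0.0795 and 0.0478 at 20 min, 0.0544 and 0.0529 at 40 min and 0.0973 and 0.0604 at 60 min.

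Gene groups differed in how their members stood against the median gene, read beside 10.2% above and 14.2% below over all genes. Of 84 cytosolic ribosomal protein genes, 0 rose more and 66 rose less, with medians of 0.0992 and 0.0583 at 20 min, 0.0623 and 0.0616 at 40 min and 0.135 and 0.0705 at 60 min. Replicate 3 lay far above replicate 4 at 20 and 60 min and close to it at 40 min. Rps9 had the highest share of the group, 0.412 and 0.262 at 20 min, 0.273 and 0.250 at 40 min and 0.483 and 0.239 at 60 min, and Rplp1, a protein of the ribosomal stalk, the lowest, 0.0599 and 0.0334 at 20 min, 0.0320 and 0.0324 at 40 min and 0.0740 and 0.0442 at 60 min. From 60 to 120 min in replicates 5 and 6, 33 of 84 rose less than the median gene and 1 more, beside 16.1% and 7.94% over all genes. Mitochondrial ribosomal proteins had 2 of 78 above and 11 below, and nuclear-encoded respiratory chain subunits 2 and 13 of 76. Proteasome subunits had 0 and 3 of 35.

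Of 20 core and naive pluripotency factors, 13 rose less and 1, Dppa4, more, with medians of 0.248 and 0.188 at 20 min and 0.393 and 0.273 at 60 min. Tbx3 was highest with 0.393 and 0.360 at 20 min, 0.411 and 0.406 at 40 min and 0.584 and 0.473 at 60 min. Pou5f1, which encodes Oct4, was lowest with 0.0705 and 0.0465 at 20 min, 0.0583 and 0.0524 at 40 min and 0.101 and 0.0603 at 60 min. The low share of Pou5f1 beside Nanog and Sox2 held in all 16 nuclear libraries listed here, with 0.0901 and 0.0825 at 120 min. Of 17 immediate early genes 9 rose less and 0 more, from 0.393 and 0.353 to 0.575 and 0.422, and Zfp36, an mRNA decay factor, was highest with 0.511 and 0.418 at 20 min, 0.646 and 0.699 at 40 min and 1.03 and 0.701 at 60 min. Of 14 p53 targets 7 rose less and 0 more, and of 21 signaling feedback genes 6 rose less and 1, Etv4, more. Spry4, an inhibitor of receptor signaling, had 0.577 and 0.397 at 20 min, 0.769 and 0.765 at 40 min and 0.924 and 0.843 at 60 min. In the network of Myc, Max and Mxd 2 of 11 rose less, Mycn and Max, and Myc itself did not pass the test, with 0.376 and 0.365 at 20 min, 0.660 and 0.318 at 40 min and 0.612 and 0.584 at 60 min.

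Splicing regulators stood closer to the median gene. Of 16 SR protein, Clk and Tra2 genes 3 rose more, the kinases Clk1, Clk2 and Clk4, and 1 less, Srsf3. Clk4, which phosphorylates SR proteins, had 0.195 and 0.154 at 20 min, 0.519 and 0.456 at 40 min and 0.693 and 0.576 at 60 min, and its introns went from 0.377 and 0.264 at 20 min to 0.873 and 0.879 at 60 min. From 60 to 120 min 11 of 16 rose less and 0 more, beside 16.1% and 7.94% over all genes. Of 17 cytosolic tRNA synthetases 4 rose more and 0 less. Cars, the cysteinyl-tRNA synthetase, was highest at 60 min and had 0.0302 and 0.0260 at 20 min, 0.0579 and 0.0678 at 40 min and 0.205 and 0.140 at 60 min, a rise of 1.41 ± 0.21 (log2, SE) over the median gene (adjusted p = 4.95e-05, edgeR). Genes of basement membrane and matrix were split, with 4 of 12 above (Lama1, Lama5, Hspg2 and Agrn) and 2 below (Lamc1 and Sparc). Lama1, a laminin chain, had 0.0809 and 0.0710 at 20 min, 0.136 and 0.128 at 40 min and 0.298 and 0.273 at 60 min. Sparc, a matrix glycoprotein, had 0.0510 and 0.0484 at 20 min, 0.0483 and 0.0670 at 40 min and 0.0567 and 0.0418 at 60 min. Zinc finger genes named Zfp had 30 of 312 above and 19 below.

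The list of snoRNA hosts and nuclear long noncoding RNAs had the highest median shares of the lists at 60 min in replicates 3 and 4. Of its 15 members 7 rose less and 1, Gas5, more, with medians of 0.569 and 0.469 at 20 min, 0.757 and 0.743 at 40 min and 0.871 and 0.732 at 60 min. Snhg6, a snoRNA host, had 0.722 and 0.688 at 20 min, 1.06 and 1.01 at 40 min and 1.03 and 1.00 at 60 min, close to 1 from 40 min on. Neat1, the scaffold of paraspeckles, had 0.410 and 0.353 at 20 min, 0.695 and 0.674 at 40 min and 0.799 and 0.732 at 60 min and Meg3, an imprinted noncoding RNA, 0.0588 and 0.0353 at 20 min, 0.0771 and 0.0984 at 40 min and 0.126 and 0.0894 at 60 min, so that 2 RNAs kept in the nucleus (3.21 and 4.49 in log2 nuclear to cytosolic CPM) were at opposite ends. Of 20 cyclins and mitotic regulators 8 rose less and 1 more, and of 16 glycolytic enzymes 8 rose less and 0 more. Gapdh had 0.0704 and 0.0454 at 20 min, 0.0410 and 0.0427 at 40 min and 0.0769 and 0.0479 at 60 min. Ccnd3, a G1 cyclin, had 0.140 and 0.0846 at 20 min, 0.0757 and 0.0823 at 40 min and 0.129 and 0.0942 at 60 min. Of 9 mitochondrial-encoded mRNAs 1 rose less, mt-Nd6, which was in the early class. These mRNAs are encoded by mitochondrial DNA, so their shares are not those of transcripts made in the nucleus. Nf1, a regulator of Ras, had 0.121 and 0.116 at 20 min, 0.207 and 0.215 at 40 min and 0.315 and 0.329 at 60 min. Tfrc, the transferrin receptor, had 0.280 and 0.233 at 20 min, 0.379 and 0.362 at 40 min and 0.539 and 0.312 at 60 min. Slf1, a DNA repair factor, had 0.0786 and 0.0677 at 20 min, 0.188 and 0.205 at 40 min and 0.306 and 0.190 at 60 min. Of these 3, Tfrc rose less than the median gene (-0.48 ± 0.17, log2, SE, adjusted p = 0.0366, edgeR).

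Genes that rose more than the median gene differed from those that rose less in what the rule did not use. Their introns lagged, with medians of 0.267 and 0.220 at 20 min and 0.735 and 0.729 at 60 min, against 0.7004 and 0.612 and 1.01 and 0.958. They were more nuclear, with a median log2 ratio of nuclear to cytosolic CPM of 1.27 against -0.28, and had 14 exon blocks against 7. At 40 min the exon medians of both groups were close, 0.142 and 0.141 and 0.154 and 0.154, while at 20 min they were 0.0557 and 0.0529 and 0.201 and 0.138, and at 60 min 0.288 and 0.240 and 0.253 and 0.144. The 20 and 60 min values chose the groups. From 60 to 120 min in replicates 5 and 6, 245 of the 1105 genes (22.2%) again rose more and 95 rose less. Of the 1534 genes, 45 rose more and 406 (26.5%) less, beside 7.94% and 16.1% over all genes. From 15 to 30 min in replicates 1 and 2 calls were fewer. Of the 1105 genes 1.54% rose more and 2.62% less, beside 0.813% and 3.69% over all genes. Their median difference from the median gene was -0.16 (log2), against -0.09 over all genes, so that as a group they did not rise more there. Of the 1534 genes 0.456% rose more and 9.39% less, with a median difference of -0.23.

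Split into 5 equal bins by the ratio of nuclear to cytosolic level, the median share grew from 20 to 60 min by a factor of 1.74 and 1.49 in the most cytosolic bin and of 2.82 and 2.59 in the most nuclear bin. The fraction of genes below the median gene went from 27.3% to 9.28% and that above from 1.39% to 17.0%. The other intervals showed less of this: from 60 to 120 min the factors were 1.66 and 1.77 and 1.87 and 2.05 in replicates 5 and 6, and from 15 to 30 min they were 2.59 and 4.64 and 2.23 and 3.85 in replicates 1 and 2, in the opposite order. By exon blocks the factor from 20 to 60 min went from 1.90 and 1.79 in the bin with the fewest to 2.95 and 2.52 in that with the most. It went from 1.68 and 1.77 to 1.76 and 1.89 between 60 and 120 min and from 2.53 and 4.44 to 2.41 and 4.37 between 15 and 30 min. By gene length it had no order, with 2.08 and 2.04 in the shortest, 2.53 and 2.42 in the next and 2.27 and 1.96 in the longest bin.

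**Figure D5:**
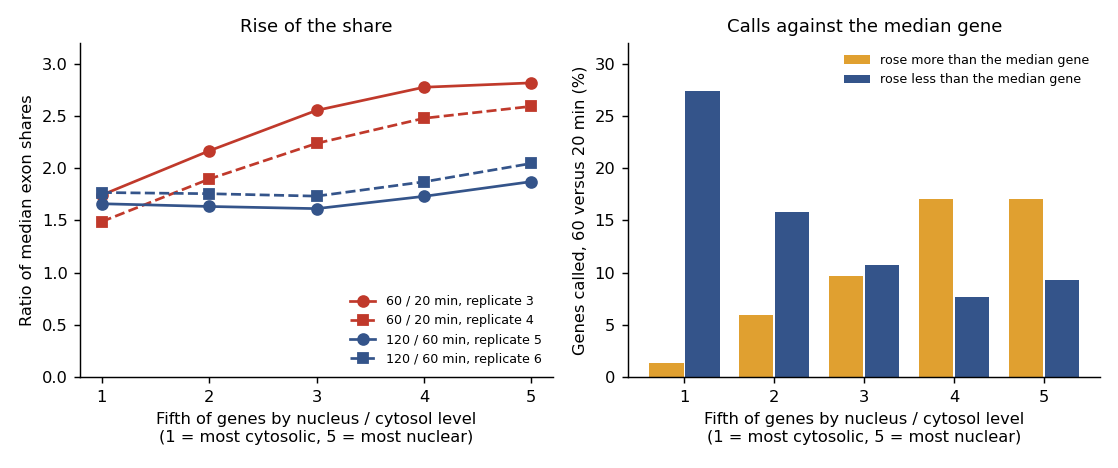
Left, ratio of the median nuclear exon shares of 2 times (vertical axis) by bin of genes from the most cytosolic (1) to the most nuclear (5) (horizontal axis), for 60 over 20 min in replicates 3 and 4 (red) and 120 over 60 min in replicates 5 and 6 (blue). Right, percent of genes in each bin that rose more (orange) or less (blue) than the median gene from 20 to 60 min, where calls below drop from 27.3% to 9.28% across the bins.

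The level of nuclear RNA, as reads per gene, was tested between 60 and 20 min to see whether amounts moved along with shares, since a share can climb through more new or less old RNA. Of 16265 genes 0 were higher and 0 lower at 60 min (edgeR, adjusted p under 0.05, 0% each), with 1468 genes (9.03%) at an unadjusted p under 0.05, and DESeq2 called 5 higher and 3 lower. Of the early class 6 of 75 genes tested (8%) and of the barely rising class 13 of 62 (21.0%) had an unadjusted p under 0.05, against 10.99% of the 10520 genes with both measures. The median difference was 0.30 (log2, 60 over 20 min) in the barely rising class and 0.02 in these 10520 genes. It was not particular to the class, with 0.18 in the genes with low shares at 60 min from which it was drawn. It was 0.18 in the genes that rose less than the median gene and 0.44 in the barely rising genes of the absolute limits. Without replicate 3 at 60 min 1390 genes were called higher and 1275 lower, so that the count of 0 rests on that library.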

How the data were processed

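Nuclear poly(A) RNA of 4sU-labeled cells was sequenced with a strand-specific kit. Per the labels and methods, the authors aligned reads with STAR 2.7.6 to GRCm38 (up to several placements per read) and deposited read counts for each gene (HTSeq 0.11.1 is named in the notes), and counts of covered T and of T2C conversions on exons and introns, without normalization and after removal of variants called in unlabeled libraries. The conversion rate was deposited as a fraction. The deposited ratio is T2C / T divided by that rate, and was recomputed here from the counts, with a largest difference of 1.03e-13. No background was subtracted, and unlabeled libraries were not analysed here. RSEM 1.3.3 is named in the submitters' notes but its values were not used.

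Samples were grouped by the fraction, time and replicate in their labels. T2C counts were fitted with edgeR 4.0.16 (R 4.3.3) with log(T × rate) as offset and 1 group per time, for the relative rise with the library's median share added to the offset. limma 3.58.1 tested the share itself, and DESeq2 1.42.0 was an alternative. p-values were adjusted after Benjamini-Hochberg over all genes tested, at 0.05. Genes needed 2000 covered T in the 6 libraries (400 in those of other replicates), intron shares 500 and cytosol shares 400. The fits were tested on simulated counts with 200 changed genes. Reads had no molecular identifiers. CPM ratios added 0.5 CPM before log2. Of 28995 gene identifiers 28895 (99.7%) matched the annotation (GENCODE, GRCm38), from which lengths, exon blocks and 3′ UTRs came. Python 3.11.15, pandas 2.3.3, numpy 2.4.6 and scipy 1.17.1 were used.

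Classes were the top or lowest 5% of a measure in both replicates. Genes named in the text are the 8 most extreme members per class, the 8 highest early shares at 20 min, the 5 smallest adjusted p per direction of the relative rise, the highest and lowest member of each list and 4 examples of the study, besides those said to be chosen later and members of lists that passed the test; some named members are not reported here. Members, classes and lists were chosen with earlier results of these data known. Alternatives were other T minimums, background subtraction, a replicate block, other tests, the 16 nuclear libraries used here in 1 fit and leaving out each library.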

Additional observations from a re-analysis of the deposited data

Results flagged for a closer look

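The nuclear median shares of the classes and gene lists were examined over the 4 libraries of 20 min (replicates 1 to 4) and of 60 min (replicates 3 to 6), in 44 groups of 4 libraries. In 4 of them the highest or lowest library stood apart from the other 3 by more than Dixon's 95% limit, and chance gives about 1 in 20. All 4 were at 60 min. The median of the barely rising class was 0.0845 in replicate 4, below 0.160 to 0.170 in the other 3 libraries. Replicate 3 stood above the other 3 libraries in the remaining cases, with 0.135 for cytosolic ribosomal proteins, 0.176 for proteasome subunits and 0.182 for cytosolic tRNA synthetases. The low value of replicate 4 belongs to a class whose choice used that library. The share of replicate 3 at 60 min moved with its reads outside exons of a single gene (28.4% against 17.1% in replicate 4) and with its sum of nuclear RNA markers (1660 against 886 CPM), and the part of these in the values was not tested.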

How the results depend on the processing

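Of the alternative values of the median rise, the counts and the class sizes, 72 stayed close to the main value (counts within 1.5 times) and 78 did not. The 10 genes named for the rise against the median gene kept their direction in all alternatives and their call in all but background subtraction, where the adjusted p was 0.0572 for each. With the background subtracted (1st percentile of the ratio, limma) 4300 genes rose and 12 fell in fold, 8 fell in absolute share, no gene stood above or below the median gene (0 and 0, and 0 and 0 from 15 to 30 min), and 13 and 22 did from 60 to 120 min. limma on log2 share gave 128 above and 184 below from 20 to 60 min, 0 and 0 from 15 to 30 min and 115 and 177 from 60 to 120 min. DESeq2 gave 53 above from 15 to 30 min, 435 above and 955 below from 60 to 120 min, and 5 genes with a higher and 3 with a lower level. With all 16 libraries in 1 fit 7 genes fell in fold and 11 in absolute share, 220 were above and 651 below from 15 to 30 min and 23 and 49 from 60 to 120 min. A T minimum of 500 gave 5 falls in fold and 5 in absolute share, and one of 10000 gave 0 and 1. Divided by the library median, 164 genes rose and 399 fell in absolute share, against 5751 and 2. Without a filter on low counts 135 genes had a higher and 108 a lower level.

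With the replicate number as a block 8 genes fell in fold and 10 in absolute share, and 276 were above and 737 below from 15 to 30 min. From 20 to 60 min the block gave 1449 above and 1953 below, against 1105 and 1534 without it. The labels do not say whether libraries with the same replicate number are paired. Deviations of same-numbered libraries correlated at -0.00232 (20 and 40 min), 0.184 (20 and 60 min) and 0.00662 (40 and 60 min). Whether the 20 and 60 min libraries are paired was not tested further.

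Leaving out 1 library in turn gave 3806 to 8245 rises and 0 to 107 falls in fold, 1312 to 8807 rises and 1 to 16 falls in absolute share, 379 to 1176 above and 685 to 1686 below the median gene, 16 to 50 and 112 to 271 from 15 to 30 min, 400 to 1027 and 706 to 1975 from 60 to 120 min, and 0 to 1390 higher and 0 to 1275 lower levels. The fewest rises in absolute share came without replicate 3 at 20 min, and the fewest calls from 15 to 30 min without replicate 2 at 30 min. A lone library was assumed to vary like the other groups. Classes chosen in a single replicate held 271 genes each. Absolute limits gave 135 early, 198 late and 676 barely rising genes, the limits added later 6 early and 22 late genes. Class sizes hide a change of members: a T minimum of 500 kept 50 of 77 early, 26 of 39 late and 36 of 67 barely rising genes, one of 10000 kept 49, 19 and 38, and background subtraction 69, 20 and 67.

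With 2 libraries per time, no test of a single median reaches 0.05, and the relative calls rest on the shared spread of edgeR. Shares hold an unsubtracted background, whose 1st percentile over genes was 0.00909 and 0.0151 at 20 min and 0.0502 and 0.0345 at 60 min. Low shares are the least certain.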

Other observations

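The single genes given here were picked after their values were seen. mt-Nd6 is encoded by mitochondrial DNA, so its share in the nuclear fraction is not that of a transcript made in the nucleus. mt-Nd6, the only protein gene on the light strand of mitochondrial DNA, had shares of 0.402 and 0.345 at 20 min, 0.301 and 0.290 at 40 min and 0.438 and 0.258 at 60 min, and in replicates 5 and 6 it went from 0.372 and 0.348 at 60 min to 0.285 and 0.286 at 120 min, -1.19 (log2) against the median gene (adjusted p = 1.35e-07, edgeR). Rps9 went from 0.239 and 0.191 to 0.217 and 0.1998 between the same times (-0.88, adjusted p = 3.31e-13), while Rplp1 went from 0.0502 and 0.0449 to 0.0921 and 0.0835. Rab26os, near 1 at 60 min, was at 0.915 and 0.806 at 120 min. Fto, an RNA demethylase, stayed between 0.0969 and 0.209 in the 16 nuclear libraries used here, whereas Creb1, also in the barely rising class, reached 0.739 and 0.611 at 120 min.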
